A study of Homo sapiens with 14 samples.

Results

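The mRNAs described here encode the proteins of the large (60S) subunit of the human cytosolic ribosome. They were found by gene name: every deposited transcript whose Ensembl identifier belongs to 1 of 45 named 60S genes in GENCODE was a candidate, and the transcript with the highest mean RPKM was taken for each gene for its level. All 45 genes were found, among 4257 protein-coding genes with at least 1 listed transcript. The mRNAs were probed in K562, an established human leukemia cell line with erythroid features, and in K562 RNA that was isolated and refolded outside cells. In icSHAPE the acylating reagent NAI-N3 marks flexible 2′-hydroxyls. In icLASER the light-activated reagent NAz-N3 marks the C8 position of purines that solvent can reach.

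The in vivo groups were living cells and the in vitro groups were refolded RNA. By the labels, NAI-N3 was used at 100 mM for 5 min with 3 libraries in vivo and 2 in vitro, beside 3 libraries from DMSO. NAz-N3 came from a 1 M stock with 10 min of UV light, with 2 libraries in vivo and 2 in vitro, beside 2 libraries without UV. The authors pooled these 14 libraries into 4 profiles, and the labels do not say which condition each control belongs to. A profile lists the RPKM of each transcript and scores its nucleotides between 0 (no enrichment over the control) and 1. With 1 profile for each reagent and condition, no value here has a replicate check and no test was possible, so differences are described by their size and by the spread over genes. Counts of reads were not among the values used, and the depth behind a score is unknown. Of the 9 erythroid and hematopoietic markers of K562, 8 were listed, among them HBG1 at a mean RPKM of 1936, and TAL1 was not. Of 6 markers of other tissues, EPCAM and KRT19 were listed, each at 23.8, and the other 4 were not.

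Each ribosome carries a single copy of almost every 60S protein, and the genes are transcribed at a high rate in growing cells. The mRNAs are short and begin with a C followed by a stretch of pyrimidines, the 5′ terminal oligopyrimidine (TOP) tract. Through this tract their translation is switched on and off by growth signals, with the protein LARP1 binding the tract when the mTOR kinase is inactive.

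The tract is visible in the annotated 5′ ends. The first 20 nucleotides of 12 of these mRNAs are given as DNA letters, 5′ to 3′, because the scores near the 5′ end described below refer to them. Capitals mark the run of pyrimidines, and coordinates and sequences are those of GRCh38 and GENCODE release 44.
RPL41 (smallest protein of the subunit), chr12:56116633-56116652, plus strand: CTCTCggccttagcgccatt
RPLP1 (acidic stalk protein), chr15:69452818-69452837, plus strand: CCCCTTTCCTCagctgccgc
RPLP2 (acidic stalk protein), chr11:809967-809986, plus strand: CCTTTTCCTCCCTgtcgcca
RPL12 (stalk base), chr9:127451387-127451406, minus strand: CCTCTCggctttcggctcgg
RPL5 (5S RNP), chr1:92832040-92832059, plus strand: CCTTTTCCCaccccctagcg
RPL39 (exit tunnel wall), chrX:119791611-119791630, minus strand: CCCTCCTCTTCCTTTCTCCg
RPL35 (tunnel exit), chr9:124861938-124861957, minus strand: CTCTTTCCCTCggagcgggc
RPL37, chr5:40835203-40835222, minus strand: CTCTTCCggtctttctggtc
RPL34, chr4:108620576-108620595, plus strand: CCTCTTCCggggacgttgtc
RPL36, chr19:5690295-5690314, plus strand: CCTTCCgccacggccgtctc
RPL27A, chr11:8682792-8682811, plus strand: CTTTTTCgtctgggctgcca
RPL19, chr17:39200283-39200302, plus strand: gcagataatgggaggagccg

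RPL39 had the longest run of those examined, with 19 pyrimidines, whereas no run of 5 began in the first 10 nucleotides of the annotated RPL19 mRNA. A start with C and 4 further pyrimidines (C or T, read on the transcript's strand) was found in 30 of the 41 members whose canonical transcript could be placed (73.2%), in 22 of 26 mRNAs of the small (40S) subunit (84.6%) and in 254 of 3159 other coding genes (8.04%). A run of at least 5 pyrimidines began within the first 10 nucleotides in 35 of the 41, with a median length of 8 nt. The share of other coding genes was not counted for this window. Within the first 5 nucleotides such a run began in 32 of the 41 (78.0%) and in 20.9% of 3159 other coding genes. The 5′ UTR was short, with a median of 45.0 nt against 102 nt in other coding genes, and the median coding sequence had 474 nt against 954 nt.

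The 60S mRNAs stood among the highest RPKM values of the profiles. Their mean RPKM over the 4 profiles had a median of 443 and ran from 148 to 2520, against a median of 10.7 for 4212 other coding genes, and 45 of 45 were above that median. Among all 4257 coding genes, 34 of the 45 ranked in the first 100, and the lowest ranked at 168. The 32 mRNAs of 40S proteins were close to this level, with a median of 475. These values come from probing libraries and are no direct count of mRNA molecules, and more cells or more RNA per cell cannot be told apart in bulk samples.

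RPL41 was the highest, with 3268 in icSHAPE in vitro, 2963 in icSHAPE in vivo, 1577 in icLASER in vitro and 2272 in icLASER in vivo. RPLP1, which with RPLP2 forms the flexible stalk that recruits elongation factors, followed with 1932, 2112, 1547 and 2262 in the same order. RPL37, a small zinc-binding protein, had 1188, 1272, 948 and 1820. Each of the 3 was higher in vivo than in vitro with icLASER, whereas the icSHAPE pair was closer together. RPL11 and RPL5, which bind the 5S rRNA and, outside the ribosome, the p53 regulator MDM2, had mean RPKM values of 1206 and 789.8. The stalk base proteins RPL12 and RPLP0 had 674 and 442, and RPLP2 had 782.

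The lowest values were those of RPL21, with 164, 174, 90.2 and 163 in the same order of profiles, of RPL36A, which lies near the exit site for tRNA, with 177, 137, 119 and 208, and of RPL10, which joins the subunit late in its assembly, with 177, 207, 163 and 256. All 3 were thus still above the median of other coding genes in every profile. Between 3 and 27 transcripts were listed for each 60S gene (median 9), and for 6 of the genes the transcript with the highest RPKM was not annotated as protein coding. In addition, 545 transcripts of 533 processed pseudogene copies of these genes were listed, with a median RPKM of 18.0 and a highest value of 952. How reads shared by isoforms and pseudogenes were assigned is not given in the sources used here, so the split of a gene's reads over its transcripts is uncertain for all members.

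In icLASER the RPKM of every 60S mRNA was higher in vivo than in vitro. The log2 ratio had a median of 0.71 over the 45, from 0.45 to 1.02, and 45 of 45 were above 0, a direction shared by 60.2% of all 3034 coding genes with both values. RPLP2 had the highest ratio, from 681 in vitro to 1377 in vivo. The other coding genes had a median of 0.07. Those with an RPKM of at least 100 had 0.49, those with transcripts under 1000 nt 0.29, and those with both properties 0.55, of which 94.7% were above 0. Abundant and short transcripts of other genes were thus nearer to the 60S mRNAs than the whole set was. These sets leave out the members alone, so 40S and other TOP mRNAs are among them. The part of level and length in the ratio was not tested. The 40S mRNAs had 0.66 and the 16 other mRNAs with TOP tracts (translation factors and related genes) 0.63, whereas 13 mRNAs of glycolytic enzymes had −0.14. In icSHAPE the 60S median was 0.08 and that of other coding genes 0.09, with 32 of 45 members above 0 against 67.2% of 2456 coding genes.

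For the regions of the mRNA, scores were averaged over the 5′ UTR, the coding sequence and the 3′ UTR. The lengths of many transcripts differ between Ensembl release 88, which the authors used, and the annotation used here, and transcripts of equal length were found for 40 of the 45 genes. These were often isoforms with another 5′ end. After the data were seen, the principal transcript of each gene (the canonical one or, where it was not usable, the one with the longest coding sequence) was therefore also placed on its sequence by the base dependence of its scores, which succeeded for all 45. Both sets are given for the regions and the codons. The values by base, by distance from the 3′ end and at the nucleotide before the AUG are those of principal transcripts alone. A difference of at least 0.05 in the mean score between in vivo and in vitro was counted.

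The coding sequences of 60S mRNAs had higher icLASER scores in cells. In transcripts of equal length the median in vivo minus in vitro difference was 0.0481 over 40 members (quartiles 0.0169 and 0.0692), and 19 of 40 were higher by at least 0.05 and 0 lower, where 7.56% of all 1561 coding genes tested were higher and 9.74% lower. The median of other coding genes was −0.00389, and that of those with an RPKM of at least 100 was 0.0137. In principal transcripts the median difference was 0.0669 (quartiles 0.0275 and 0.119), from a score of 0.146 in vitro to 0.210 in vivo. Here 27 of 45 were higher by at least 0.05 and 0 lower, against 7.73% and 14.3% of all 2796 coding genes tested, and other coding genes had a median of −0.00958. Other abundant coding genes stood at 0.0140 in this set, the 40S mRNAs at 0.0489, the other TOP mRNAs at 0.0292 and the glycolytic mRNAs at 0.00405.

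The largest rises in principal transcripts were those of RPL37, whose coding sequence went from 0.0616 to 0.320, of RPL27A, a protein conserved in all domains of life, from 0.0612 to 0.279, and of RPL28, from 0.0875 to 0.264. In icSHAPE the same coding sequences had 0.0209 and 0.0709 in RPL37, 0.102 and 0.119 in RPL27A and 0.115 and 0.156 in RPL28, a smaller difference. The principal transcript of RPL37 carries an annotated 3′ UTR of which 7208 nt were scored in icLASER and had an RPKM of 127, whereas the transcript of highest RPKM had 1307. Those of RPL27A and RPL28 were likewise long isoforms of low RPKM, with 76.2 against 542 and 65.6 against 469.9 in the transcripts of highest RPKM. The coding sequences of equal length went from 0.165 to 0.223 in RPL27A and from 0.0855 to 0.133 in RPL37, and the size of these rises therefore depended on the isoform. Among transcripts of equal length, RPL26, which lies by the tunnel exit, RPL9 and RPL31, also a neighbor of the exit, had the largest rises, with 0.0505 to 0.203, 0.0627 to 0.209 and 0.0843 to 0.222. RPL28 stood at the other end among transcripts of equal length, with 0.187 in vitro and 0.156 in vivo in another isoform, so that its direction depended on the transcript. RPL35 (0.129 and 0.0860) and RPL29, known for binding heparin (0.204 and 0.188), were the other members at the lower end.

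At the lower end in principal transcripts stood RPL39, a very short protein in the wall of the exit tunnel, with 0.250 in vitro and 0.218 in vivo, RPL22, known for binding viral RNA, with 0.373 and 0.352, and RPL15, a gene mutated in Diamond-Blackfan anemia, with 0.203 and 0.197. These 3 were the members with a negative difference, and none of them reached −0.05. The 4 stalk proteins differed among themselves: RPLP2 went from 0.0719 to 0.188, RPLP1 from 0.113 to 0.191, RPL12 from 0.160 to 0.193 and RPLP0 from 0.161 to 0.162. In the 5S RNP, RPL11 went from 0.143 to 0.219 and RPL5 from 0.186 to 0.216.

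All 4 bases took part in the rise, counted at the deposited position. In the coding sequence of 60S mRNAs the median difference was 0.0719 for A, 0.0614 for C, 0.0720 for G and 0.0636 for U. In other coding genes it was −0.0141 for A, 0.0167 for C, −0.0398 for G and 0.00446 for U. The in vitro level of G, the base with the highest icLASER score, was 0.301 in 60S mRNAs and 0.346 in other coding genes.

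The icLASER rise depended on the distance from the 3′ end. Within the coding sequence of principal transcripts and between 30 and 100 nt from the annotated 3′ end, the 16 members with enough positions had a median difference of 0.205, and 16 of 16 rose by at least 0.05, as did 80.5% of all 128 coding genes with such a stretch. The other coding genes had a median of 0.106. Between 100 and 200 nt the members had 0.150 (22 of 22, against 77.1% of all 414 genes) and the others 0.0792. The members then fell to 0.0903 at 200 to 300 nt and 0.0554 at 300 to 400 nt, with 0.0607 and 0.0375 in other coding genes. Between 400 and 600 nt the 2 medians, 0.0194 and 0.0190, were nearly equal.

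A rise toward the 3′ end was thus present in 60S mRNAs and in other coding genes, and within the coding sequence it was larger in the 16 to 25 members with such a stretch between 30 and 400 nt from that end. Over coding sequence and 3′ UTR together the gap was not of this kind. The members had 0.146 (n = 40) and the other coding genes 0.159 at 30 to 100 nt, 0.130 and 0.0906 at 100 to 200 nt, and 0.0583 and 0.0573 at 200 to 300 nt. The median coding sequence had 474 nt in the members and 954 nt in other coding genes, and the median 3′ UTR 180.0 and 745 nt. The part of either length in the difference over the whole coding sequence was not tested further. Other coding genes with an RPKM of at least 100 had 0.0945 (n = 20) and 0.0699 (n = 55) in the first 2 intervals, lower than the members. In icSHAPE the members had 0.0306 and 0.0201 there and the other coding genes 0.0241 and 0.0419.

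In icSHAPE the median difference over the coding sequences of 60S mRNAs was near 0 in the deposited scores. Those of other coding genes as a whole were higher in cells. The median difference was 0.00247 over 40 transcripts of equal length (quartiles −0.0165 and 0.0206), with 0 of 40 higher and 3 lower by at least 0.05, where 21.5% of all 1276 coding genes were higher and 2.04% lower. The other coding genes had a median of 0.0293 (quartiles 0.0111 and 0.0478). With each profile divided by its own mean, the median of the members was −0.0269, and its gap to the median of other coding genes was −0.0256. In principal transcripts the medians were −0.000940 and 0.0339, and 2 of 45 members were higher and 8 lower, against 28.1% and 2.11% of all 2270 coding genes. Other coding genes with an RPKM of at least 100 lay between, at 0.0126, and the share of nucleotides with a score of exactly 0 in vitro had a median of 21.8% in 60S mRNAs, 27.6% in these genes and 59.6% in all other coding genes. The part of abundance in this difference was not tested further.

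RPL22 had the largest fall in icSHAPE, from 0.330 in vitro to 0.177 in vivo in its principal transcript and from 0.175 to 0.0872 in the one of equal length. RPL38, whose loss disturbs body patterning in mice, fell from 0.249 to 0.118, RPL41 from 0.402 to 0.286 and RPLP1 from 0.233 to 0.120. RPL41 is scored over only 78 coding nucleotides. In transcripts of equal length RPL13A, also known as a translational silencer outside the ribosome (0.237 to 0.186), and RPLP2 (0.192 to 0.142) followed RPL22. The highest in principal transcripts were RPL35 (0.123 to 0.176) and RPL37 (0.0209 to 0.0709), with RPL24, which forms a bridge to the small subunit, next at 0.131 and 0.173. When both reagents were considered together, icSHAPE was lower and icLASER higher in vivo in the coding sequence of 20 of 45 members (44.4%) and in 152 of 2092 other coding genes (7.27%). In transcripts of equal length these shares were 42.5% and 9.09%. The opposite pair, icSHAPE higher and icLASER lower, was found in 0 of 45 members and in 1079 of the 2092 other genes in principal transcripts. In transcripts of equal length it was found in 3 of 40 members and 521 of 1144 other genes. These counts are by sign, with no minimum size. For each reagent alone, 145 other principal transcripts with an RPKM of at least 100 had 46 lower and 99 higher in icSHAPE. In icLASER 96 of them were higher and 49 lower.

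In the 5′ UTR the 2 sets of transcripts gave different pictures for icSHAPE. In equal-length transcripts the median difference was 0.0115 over 38 members (10 higher and 6 lower by at least 0.05, against 31.5% and 14.3% of all 1176 genes), with 0.0239 in other coding genes. In principal transcripts it was −0.0277 over 45 (4 higher and 14 lower, against 27.3% and 19.9% of all 2187 genes), with 0.00965 in other coding genes. The sign of the 60S median in icSHAPE therefore rests on which 5′ end is taken. Short 5′ UTRs gave the widest differences. RPL7 fell from 0.661 to 0.210 over 21 nt and RPL23A, the docking site for factors at the tunnel exit, from 0.555 to 0.269 over 21 nt. RPL9 fell from 0.321 to 0.138, while RPL36A went from 0.05 to 0.225, RPL22 from 0.144 to 0.269 and RPL7A from 0.150 to 0.214.

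In icLASER the 5′ UTR was lower in cells in both sets. In equal-length transcripts the median difference was −0.0712, and 21 of 37 members were lower by at least 0.05 and 0 higher, against 48.5% of all 1410 coding genes for the fall and 9.65% for the rise. Other coding genes had −0.0470, and −0.0472 in principal transcripts, so a fall was not particular to the members. RPL36 (0.437 to 0.214), RPL34 (0.367 to 0.184) and RPL12 (0.308 to 0.141) had the largest falls. In principal transcripts the median was −0.0334, with 19 of 45 lower and 12 higher, against 48.3% and 12.2% of all 2681 genes, so these members were spread more widely. There RPL11 fell from 0.545 to 0.185, RPL19 from 0.375 to 0.162 and RPL35A, another gene of Diamond-Blackfan anemia, from 0.466 to 0.256. RPL7, which fell in icSHAPE, went from 0.405 to 0.624 in icLASER, RPL37 from 0.130 to 0.282 and RPL23, which also binds MDM2, from 0.204 to 0.350.

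The 3′ UTRs, many of them very short, had higher icLASER scores in cells, as did those of other abundant genes. In icLASER the median difference was 0.104 in equal-length transcripts, with 25 of 31 members higher by at least 0.05 against 52.9% of all 1486 genes, and 0.0808 in principal transcripts, with 25 of 37 against 49.3% of all 2747 genes. Other coding genes had 0.0531 and 0.0484. The other equal-length genes with an RPKM of at least 100 had 0.0741, and 61 of these 80 were higher by at least 0.05. In principal transcripts such genes had 0.0739 with 93 of 135 higher (68.9%), a share near the 67.6% of the members. In icSHAPE the medians for the members were 0.0222 and 0.0328, with 4 of 31 and 11 of 37 higher, against 25.0% of 1205 and 25.6% of 2227 genes. Other coding genes had 0.0284 and 0.0287 and the abundant ones 0.0316 and 0.0358, so the icSHAPE values of the members lay near those of other genes.

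Over the whole transcript of highest RPKM the differences were small. In icLASER the median of the members was 0.0207, with 10 of 45 higher by at least 0.05 against 1.45% of all 3032 coding genes. Other coding genes had a median of 0.00581. Those with an RPKM of at least 100 had 0.0179, with 2.25% higher by at least 0.05. The 40S mRNAs had 0.0184, with 3.12% higher, so both medians were near that of the members. In icSHAPE the median of the members was 0.00733, with 3 of 45 higher against 13.4% of all 2455 coding genes. Other coding genes had 0.0296, those with an RPKM of at least 100 had 0.0148 and the 40S mRNAs 0.0135.

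Near the TOP tract, the scores depend on where the mRNA is taken to begin. Because the first 6 nucleotides of a listed transcript carry no score, the tract itself could be read only where the Ensembl 88 transcript began upstream of the annotated start used here. This was the case for 33 members. Over nucleotides 1 to 10 the icSHAPE score of the 25 of these with a TOP start had a median of 0.214 in vitro and 0.246 in vivo. Of the 25, 11 were higher and 7 lower by at least 0.05, against 29.5% and 39.8% of all 1499 genes scored there. The 152 other coding genes with such a start had 0.210 and 0.275, values near to those of the members, and 18 mRNAs of 40S proteins had 0.218 and 0.290. In icLASER the 25 members had 0.150 and 0.196, with 12 higher and 9 lower by at least 0.05. There 165 other coding genes with such a start had 0.201 and 0.177, with 43 higher and 68 lower. In icSHAPE the 8 members without a TOP start had 0.322 and 0.10. Among them RPL4, RPL9, RPL23A and RPL32 have a run of pyrimidines that begins at nucleotide 6, 6, 9 and 3. This group is thus defined by the annotated first nucleotides and is not free of tracts.

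Single members differed in direction. RPL5 had the largest icSHAPE rise over nucleotides 1 to 10, from 0.226 to 0.531. Its score rose at the C and the U tract from 0.133 to 0.479 at nucleotide 1, from 0.422 to 0.811 at nucleotide 2 and from 0.203 to 0.825 at nucleotide 4, and its icLASER score fell at the first nucleotide from 1.00 to 0.00200. RPLP1 (1.00 at nucleotides 6 and 9 in vivo, from 0.708 and 0.149) and RPLP2 (1.00 at nucleotide 5 in vivo, from 0.688) also rose within the tract in icSHAPE. Other members with a TOP start fell over nucleotides 1 to 10, among them RPL7 from 0.889 to 0.383, RPL31 from 0.357 to 0.188 and RPL39 from 0.581 to 0.483. RPL41, the most abundant, had icSHAPE scores of at most 0.0240 over its first 5 nucleotides in either condition. Scores in the tract thus ranged widely between members.

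Just downstream, the 60S mRNAs had low scores, as did the 40S mRNAs. Over nucleotides 11 to 30 the icSHAPE medians of the 33 members were 0.0972 in vitro and 0.0740 in vivo, against 0.158 and 0.148 in 1466 other coding genes. The difference was at least 0.05 downward in 5 members and upward in 1, against 31.0% and 18.9% of all 1499 genes. In icLASER the members had 0.131 and 0.162 and the other coding genes 0.239 and 0.185, and 10 members were higher and 8 lower by at least 0.05, against 17.5% and 46.4% of all 1786 genes. Other coding genes with an RPKM of at least 100 lay between these in icSHAPE, at 0.143 and 0.122, and had 0.206 and 0.183 in icLASER. The 18 mRNAs of 40S proteins read there had 0.117 and 0.0943 in icSHAPE and 0.147 and 0.130 in icLASER. In members with a short 5′ UTR, such as RPL23 (11 nt) and RPL6 (19 nt), nucleotides 11 to 30 include coding sequence. Unlike regions are thus in part compared with the longer 5′ UTRs of other coding genes. In equal-length transcripts, where nucleotides 7 to 30 were read and only 8 of 40 started with a TOP tract, the icLASER difference of 36 members was −0.0944, and 23 were lower by at least 0.05 against 52.3% of all 1323 genes. In the canonical transcripts the same window gave 0.0325, of opposite sign.

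The highest score of the 5′ end lay upstream of the annotated mRNA. That position is described because its score was the highest, so part of a fall in vivo can come from this choice. At the position 3 nt before the annotated first nucleotide, the mean icSHAPE score of 26 members was 0.894 in vitro and 0.170 in vivo. It was lower in vivo in 23 of them and higher in 2. In icLASER the means were 0.798 and 0.292, with 20 lower and 2 higher. The 40S mRNAs had 0.977 and 0.136 in icSHAPE over 16 genes. Other coding genes also fell, from 0.809 to 0.397 in icSHAPE and from 0.564 to 0.349 in icLASER. Of them, 748 of 1167 were lower in vivo in icSHAPE and 98 higher, and in icLASER 665 of 1364 were lower and 233 higher. Those with an RPKM of at least 100 fell from 0.910 to 0.410 and from 0.728 to 0.367. Of these, 53 of 76 were lower and 3 higher in icSHAPE, and 46 of 76 lower and 9 higher in icLASER. The fall was therefore found in each set, and in icSHAPE the in vivo level of the ribosomal protein mRNAs was the lowest of the sets named here. These positions precede the start of the mRNA in GENCODE, and whether RNA molecules carry them was not tested.

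At the start codon, the position of a score by 1 nucleotide matters. Over the 45 members the icSHAPE score varied more with the base 1 nucleotide downstream (in vivo means of 0.252 before A, 0.0636 before C, 0.0587 before G and 0.215 before U) than with the base at the deposited position (0.185 for A, 0.107 for C, 0.140 for G and 0.165 for U). The icLASER score followed G at the deposited position (0.290 in vivo, against 0.114 for U) and A 1 nucleotide downstream (0.231). Single-nucleotide values below are given at the deposited position, and each may describe the next nucleotide.

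The nucleotide before the AUG had the highest mean score of the start region in 60S mRNAs. In icSHAPE that score was lower than in other coding genes, as it was in mRNAs of small-subunit proteins. In icSHAPE the mean over 45 members at this position was 0.489 in vitro and 0.358 in vivo. The score was lower in vivo in 31 members (68.9%) and higher in 8. In 2174 other coding genes it was 0.572 and 0.629, and in those with an RPKM of at least 100 it was 0.577 and 0.531. In icLASER the members had 0.358 and 0.399 and the other coding genes 0.499 and 0.446, whereas those with an RPKM of at least 100 had 0.383 and 0.365, below the members in vivo. At the G of the AUG the icLASER score of the members was 0.343 in vitro and 0.285 in vivo, against 0.486 and 0.332 in other coding genes, while the mean of the 30 nt on both sides was 0.200 and 0.187 in the members. In transcripts of equal length the G had 0.471 and 0.392 in 39 members and 0.483 and 0.328 in other coding genes, so the order in vivo depended on the set of transcripts.

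The stop codon of a 60S mRNA was usually UAA. This codon ended 32 of the 45 coding sequences (71.1%) and 30.6% of other ones, UGA ended 8 (17.8% against 48.2%) and UAG 5 (11.1% against 21.2%). The icLASER score over the 30 nt on both sides of the stop codon rose from 0.0958 in vitro to 0.270 in vivo in 42 members and from 0.123 to 0.164 in other coding genes. At the second nucleotide of the stop codon the members went from 0.119 to 0.315 and the other coding genes from 0.302 to 0.334. In 30 mRNAs of 40S proteins the surroundings rose from 0.0979 to 0.241 and the second nucleotide from 0.164 to 0.296, so the rise was not particular to the members. Among equal-length transcripts the surroundings went from 0.113 to 0.234 in 36 members and from 0.127 to 0.161 in other coding genes. In 60S mRNAs, as in 40S mRNAs, the stop codon thus rose together with its surroundings in cells. In icSHAPE the surroundings went from 0.0940 to 0.113 in the members and from 0.126 to 0.173 in other coding genes.

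Along the coding sequence the scores of 60S mRNAs had a period of 3, as did those of other coding genes. In principal transcripts the icSHAPE score in vivo had medians of 0.214, 0.142 and 0.165 at codon positions 1, 2 and 3 as deposited, and position 1 was the highest in 43 of 45 members. It was the highest in 42 of 45 in refolded RNA. Among other coding genes it was the highest in 2601 of 2895 in vivo and in 1913 of 2309 in refolded RNA. In icLASER the medians in vivo were 0.230, 0.178 and 0.224. Position 1 was the highest in 31 of 45 members and in 2209 of 3093 other coding genes, a similar share. Among equal-length transcripts it was the highest in vivo in 34 of 40 members in icSHAPE and 28 of 40 in icLASER. In other coding genes the counts were 1433 of 1666 and 1205 of 1792, again similar shares. The order of the positions moved when scores were read 1 nucleotide to either side.

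The pattern of scores along the transcripts of highest RPKM was correlated between cells and refolded RNA, to a degree that varied between members. Across positions of one transcript, which share library, depth and base composition, the Pearson correlation of in vivo with in vitro icSHAPE scores had a median of 0.739 over the 45 members, from 0.263 for RPL6 to 0.879 for RPL18, against 0.477 in other coding genes and 0.709 in those with an RPKM of at least 100. For icLASER the medians were 0.719, 0.540 and 0.769, so the members lay below the other abundant genes there. RPL31 (0.271) and RPL37 (0.367) were the lowest members, followed by RPLP2 (0.384) and RPL38 (0.408). In the same transcripts the mean icLASER differences of RPL31 and RPL37 were 0.0227 and 0.0206, near the median of the members.

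The reagents gave different profiles of the same mRNAs. The correlation between icSHAPE and icLASER had a median of 0.480 in vivo, from 0.268 for RPL38 to 0.610 for RPL23A, and 0.514 in vitro. In other coding genes with an RPKM of at least 100 it was 0.460 and 0.490. Of 28479 nucleotides of 60S mRNAs scored by both reagents in vivo, 11.4% reached a score of 0.5 in icSHAPE, 11.7% in icLASER and 4.50% in both, whereas independent reagents would give 1.32%, a ratio of 3.40. In vitro 4.37% reached it in both, a ratio of 3.79. Other coding genes with an RPKM of at least 100 had ratios of 3.26 in vivo and 3.71 in vitro.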

How the data were processed

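Libraries of K562 cells and K562 RNA were processed by the authors: reads were trimmed and aligned to human transcripts of Ensembl release 88 on GRCh38 (Trimmomatic and Bowtie2 are named in the submitters' processing notes), and the icSHAPE pipeline pooled replicates and controls into 4 deposited profiles. In these, RPKM is the deposited level of a transcript, normalized for length and library size and at least 5 in every row; from which of the pooled libraries it was computed is not given in the sources used here. The deposited enrichment score per nucleotide, scaled by the authors, has no value in the first 6 and last 30 nt. Depth per sample is unknown, and no column of other samples was present (0).

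Members and lists were chosen with earlier results of these data known. Genes, regions and sequences came from GENCODE release 44 (GRCh38). Region means needed 10 scored nucleotides, whole transcripts and correlations 100, and distance intervals 30. Transcripts of other length were placed by the base dependence of their scores, with shifts up to 1000 nt, a z of at least 15 and 1.50 times the next best. Among 2192 transcripts of equal length, on which the base dependence was learned, 99.4% returned a shift of 0. In simulated data 399 of 400 were accepted, 100.0% at the planted shift, and a planted difference of 0.1 came back as 0.103. The simulated scores were drawn from the same base dependence, so this checks the computation and cannot show how well real transcripts were placed. The printed 12 sequences equal the genome sequence. Named genes were the 3 members with the highest and lowest RPKM and, per reagent, the 3 with the highest and lowest difference in the coding sequence and the 5′ UTR, in both transcript sets, plus the P stalk and 5S RNP; RPL6, RPL18, RPL23A and RPL38 in the correlations were chosen after their values were seen. Sequences were shown for the named members with a placed canonical transcript, by RPKM. Comparators were 40S, other TOP and glycolytic mRNAs, and other coding genes of high RPKM or short length. Other coding genes leave out the members alone, so they and their subsets hold the 40S, other TOP and glycolytic mRNAs that meet the same limits. No p-value was computed. Alternatives included other transcripts, bases, windows, levels, scalings and a shift of scores by 1 nt. Computation used Python 3.11.15, numpy 2.4.6, scipy 1.17.1 and matplotlib 3.10.9.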

Additional observations from a re-analysis of the deposited data

How the results depend on the processing

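No paired analysis was possible because the authors pooled the replicates of each group into 1 profile. For the same reason no replicate could be left out, and a value was counted as moved when it changed by more than the spread (SD) over the members. Of 402 alternative values for 79 results, 361 stayed within the spread or, for a count, within 1.5 times, 27 moved and 14 turned a value of at least 0.05 to the other sign. A further 25 values changed the sign of a result below 0.05, among them the icSHAPE medians of the coding sequence and 5′ UTR, whose direction is not settled. The cause was not tested unless the alternative itself shows it. The planned comparison of regions in canonical transcripts could not be computed without placing them, since 0 members' canonical transcripts have the length of the reference.

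With a call of 0.1 in place of 0.05, counts of members fell by construction. In equal-length transcripts, 3 and 12 5′ UTRs were lower (icSHAPE and icLASER), 6 coding sequences were higher (icLASER) and 16 3′ UTRs were higher (icLASER). In principal transcripts the counts were 5, 12, 15 and 16. The 6 icSHAPE 5′ UTRs lower by 0.05 became 10 with A and G alone, 3 with C and U alone, 12 with each profile divided by its own mean and 14 in principal transcripts, whose own 14 became 24 with that division. The 25 icLASER 3′ UTRs became 16 as a share of reactive nucleotides and 13 with C and U alone. Division of each profile by its mean moved the icSHAPE coding difference to −0.0269 and the whole-transcript difference to −0.0204. The gap in log2 icLASER RPKM to other coding genes fell to 0.22 against those with an RPKM of at least 100, 0.42 against those under 1000 nt and 0.16 (0.155) against those with both. The correlation gaps to genes with an RPKM of at least 100 were −0.0501 for icLASER in vivo with in vitro, of opposite sign, 0.0294 for icSHAPE, and 0.0198 in vivo and 0.0234 in vitro between reagents. The share reactive to both reagents was 8.83% and 2.18% in vivo and 8.17% and 2.30% in vitro at levels of 0.3 and 0.8.

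The icLASER difference over nucleotides 7 to 30 changed sign to 0.0325 in placed canonical transcripts. With scores read 1 nt downstream, codon position 1 less position 2 changed sign to −0.0391 in icSHAPE and −0.0125 in icLASER in equal-length transcripts, and to −0.0469 and −0.00917 in principal ones. Read 1 nt upstream, the values were −0.0222 and −0.0502, and −0.0253 and −0.0569. The G of the start codon less its flanks became −0.0204 upstream in equal-length transcripts, and −0.0932 downstream and −0.101 upstream in principal ones. The second stop nucleotide less its flanks became −0.0834 downstream.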

Other observations

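Composition of the coding sequence differed between 60S mRNAs and other coding genes. The median share of A was 29.8% in the members and 26.0% in other coding genes, and that of G was 26.4% and 27.0%. In the 5′ UTR the median share of U was 24.6% in the members and 16.7% in other coding genes, and that of G was 28.6% and 34.6%.

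The 18 proteins conserved in all domains of life and the 27 others gave icLASER coding differences with medians of 0.0487 and 0.0781 in principal transcripts. The 8 proteins of the tunnel wall and exit gave 0.0598. In transcripts of equal length the medians were 0.0501 for 15 conserved proteins, 0.0472 for 25 others and 0.0501 for 7 of the tunnel, so the order of the first 2 groups depended on the transcripts. In icSHAPE the corresponding medians were 0.00348, −0.00494 and 0.000581 in principal transcripts and −0.00820, 0.00369 and −0.0130 in those of equal length, with each sign changed.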
